A study of Mus musculus with 4 samples.

Results

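Wnt6, Wnt10a, Ihh, Epha4 and Pax3 are 5 protein-coding genes that follow each other along mouse chromosome 1, out of 21418 protein-coding genes annotated on the autosomes. They were chosen by name, as the genes of 3 neighbouring topologically associated domains (TADs), with earlier results of these data known, by a rule that uses no measured value. The stretch described runs from 500 kb before the first gene body to 500 kb after the last one, chr1:74280001-78720000 in mm9, and spans 111 bins of 40 kb. No bin of the stretch had been filtered out of either matrix.

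The study used Hi-C, in which pairs of distant DNA ends that were ligated in the nucleus are sequenced and counted, to ask whether TAD boundaries change when the X-linked long non-coding RNA locus Firre is removed. The groups were male mouse embryonic stem cells labelled WT and male mouse embryonic stem cells labelled Firre KO. Each group had 2 libraries, technical duplicates by the study's methods, that were merged into 1 matrix, so no difference here has a replicate check and no test was run. Per the methods, the WT cells were of the N3 line in 2i medium, and the Firre KO cells were kept in 2i medium on irradiated feeder fibroblasts that were removed by plating before use. The legend to the matrices gives the same cultures, while another sentence of the study's text names feeder cells for both groups. By the labels and methods, genotype, feeder culture and possibly the cell line thus differed together and cannot be told apart. The Firre KO allele lacks the locus between 2 loxP sites, and the methods do not say how many cell lines carried it.

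In all, 65611035 read pairs were recovered for WT and 46635652 for Firre KO, of which 16.1% and 35.6% joined different chromosomes. The bin that lies wholly inside the Firre deletion, chrX:47920001-47960000, held 1782 read pairs in WT (95% Poisson interval 1700 to 1867) and 2011 in the other matrix (1924 to 2101). The files therefore do not show the loss that the label states, and the second matrix is called the KO-labelled matrix throughout. The median over X chromosome bins was 522 read pairs in WT and 600 in the KO-labelled matrix, although the latter is shallower in all. Both groups are labelled male, and the cause of this difference was not tested. Inside the stretch described, 78939 read pairs joined 2 of its bins in WT and 49859 in the KO-labelled matrix.

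TADs are stretches of chromosome whose parts meet each other more often than they meet their neighbours, and the boundaries between them are found as dips in the number of contacts that cross a point. Wnt6 and Wnt10a encode secreted Wnt ligands, Ihh encodes the Indian hedgehog ligand of cartilage and bone growth, Epha4 encodes a receptor tyrosine kinase for ephrins, and Pax3 encodes a paired-box transcription factor of neural crest and muscle precursors. The locus is known for inherited limb malformations in which deletions, inversions or duplications across these boundaries bring limb enhancers of the Epha4 domain next to the other genes.

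In mm9 with the GENCODE M1 annotation, Wnt6 lies on the plus strand at chr1:74818466-74831893 and Wnt10a on the plus strand at chr1:74838090-74850753. Both start in the same bin, chr1:74800001-74840000, so their promoter contacts cannot be separated here. Ihh lies on the minus strand at chr1:74991891-74998246, Epha4 on the minus strand at chr1:77363760-77511663, and Pax3 on the minus strand at chr1:78097842-78193709. Their promoter bins begin at 74960001, 77480001 and 78160001. The Wnt6 and Ihh end is gene-dense, with 50 of the 58 protein-coding starts of the stretch before the boundary between Ihh and Epha4.

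The contacts were read at the ends of HindIII fragments, so the HindIII site nearest each start is shown as a place where the enzyme can cut. A bin of 40 kb holds several such sites, so its contacts cannot be assigned to any 1 of them. Each site is given on the plus strand of mm9 with 12 bases on either side, and the capitals mark the AAGCTT that the enzyme recognises.
Wnt6, chr1:74819607-74819636, intron of Wnt6: cgagggtttccaAAGCTTtgagccttgagg
Wnt10a, chr1:74843119-74843148, intron of Wnt10a: attccattcacaAAGCTTgaccagggagct
Ihh, chr1:74996788-74996817, intron of Ihh: caaggattccccAAGCTTggtctcagagcc
Epha4, chr1:77510802-77510831, intron of Epha4: tactggagagagAAGCTTacagtggggtat
Pax3, chr1:78193721-78193750, intergenic: ttctttcacccaAAGCTTgatcaggagccc
The site of Pax3 lay 29 bases upstream of its start. The sites of Epha4, Wnt6, Ihh and Wnt10a lay 844, 1153, 1441 and 5041 bases downstream of theirs, and that of Wnt10a falls in the next bin. The Epha4 promoter bin held 16 HindIII sites, against 8 in the bins of Ihh and Pax3, 7 in that of Wnt6 and Wnt10a and a median of 13 over chromosome 1. Its total of 3727 read pairs in WT and 2730 in the KO-labelled matrix was the highest of the 4 promoter bins, and the lowest totals were 2059 and 1593, for Wnt6 and Wnt10a.

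By the boundaries called in WT the 5 genes fell into 3 TADs, with the long gene desert before Epha4 as a separate stretch. The boundary between the desert and the Epha4 TAD was the weakest of those called here in WT. Contacts across it were not depleted, as given below, so the name Epha4 TAD stands for called limits only. The Ihh TAD, chr1:74640001-75560000, was 920 kb long and held Wnt6, Wnt10a and Ihh among 36 protein-coding starts. The desert stretch, chr1:75600001-76960000, was 1360 kb long and held 0 protein-coding starts. The Epha4 TAD, chr1:77000001-77880000, was 880 kb long with Epha4 as its only start, and the Pax3 TAD, chr1:77920001-78560000, was 640 kb long with 5 starts. These limits are the boundaries called from the WT insulation score, the log2 of the contacts that cross a bin within 480 kb over the mean of the chromosome.

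The border between Ihh and Epha4 was the lower of the 2 borders in both matrices, and the score at it was lower in the KO-labelled matrix. Its WT bin, chr1:75560001-75600000, had a score of -0.96 in WT and -1.90 in the KO-labelled matrix, a difference of -0.94. With the plain mean of the square, for which a counting interval can be given, the difference was -0.77 (95% interval -0.89 to -0.64). Of 2180 autosomal WT boundaries, 14.6% had a difference of -0.94 or lower in the first of these scores, and the median was -0.17. The score is spread more widely in the KO-labelled matrix, with an SD over the autosomes of 0.829 against 0.470 in WT. In units of these SDs the border stood at -2.04 in WT and -2.29 in the KO-labelled matrix, a difference of -0.25. The only protein-coding gene that starts within 1 bin of this border is Slc4a3, an anion exchanger.

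The border between Epha4 and Pax3, in the bin chr1:77880001-77920000, was shallower. Its score was -0.43 in WT and -0.69 in the KO-labelled matrix, a difference of -0.26 that 44.0% of the autosomal WT boundaries matched or went below. By the plain mean the difference was -0.18 (95% interval -0.30 to -0.07). In SDs of each matrix the direction turned, from -0.91 in WT to -0.83 in the KO-labelled matrix. No protein-coding gene starts within 1 bin of it.

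Of the 5 WT boundaries in the stretch, 2 had a boundary of the KO-labelled matrix within 1 bin, against 44.2% of the autosomal WT boundaries. The shared ones were the Ihh-Epha4 border and the boundary after Pax3, each displaced by 40 kb. The Epha4-Pax3 border was 80 kb away in the KO-labelled matrix. The weakest WT boundary, chr1:76960001-77000000 between the desert and the Epha4 TAD, had a strength of 0.52, and the nearest boundary of the KO-labelled matrix was 840 kb away. At that bin the score was 0.14 in WT and 0.75 in the KO-labelled matrix, above the chromosome mean in both, and 94.6% of autosomal WT boundaries had a difference at or below this one. The boundary before Wnt6, chr1:74600001-74640000, had a score of -0.97 in WT and -0.68 in the other matrix, where the nearest called boundary was 560 kb away.

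By the boundaries of the KO-labelled matrix, the desert and Epha4 thus lay in 1 domain of 2240 kb, chr1:75560001-77800000. Pax3 lay in a domain of 680 kb, chr1:77840001-78520000, and Wnt6, Wnt10a and Ihh in one of 1440 kb that begins before the stretch. The 2 borders ranked 35 and 118 by strength among 181 WT boundaries of chromosome 1, and 32 and 107 among 171 in the KO-labelled matrix. The scores of the 111 bins in both matrices had a Pearson correlation of 0.861 and a Spearman correlation of 0.877, given as a description, since neighbouring bins share contacts.

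**Figure D1:**
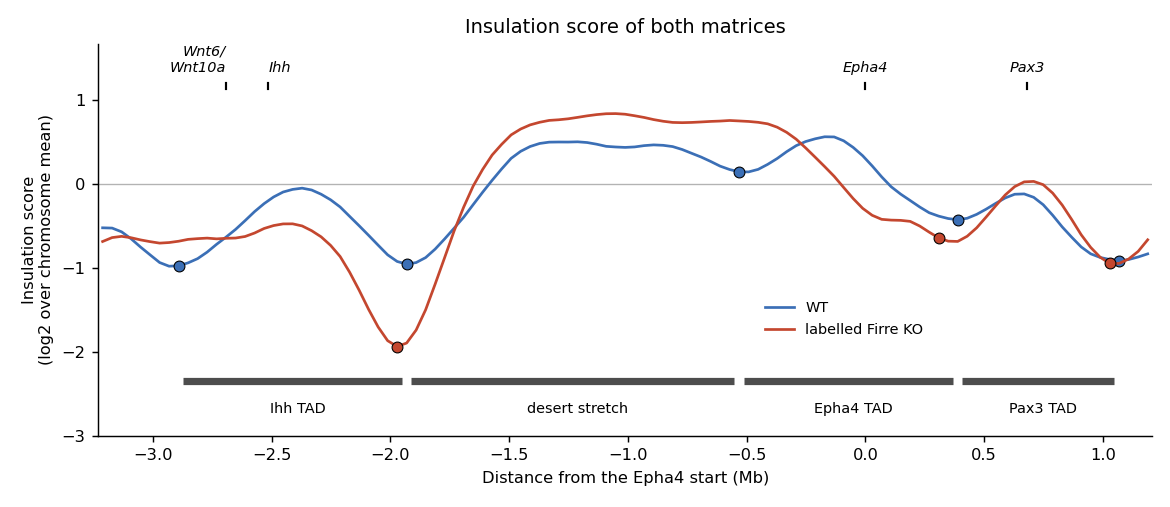
Insulation score (log2 over the chromosome mean, vertical axis) of the 111 bins against distance from the Epha4 start (Mb), WT in blue and the KO-labelled matrix in red; dots are called boundaries and grey bars the 4 WT stretches. At the Ihh-Epha4 border the red line falls to -1.90 where the blue line stands at -0.96, and the WT boundary inside the Epha4 domain has no red dot beside it.

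CTCF binding is commonly found at TAD boundaries, so the border bins were searched on both strands for a run of 12 letters shared with the known CTCF consensus, CCA, 2 bases of any kind, AG, 2 more of any kind and GGC. At least 1 match is found in 78.2% of 59855 autosomal bins, and the median is 2, so a match by itself sets no bin apart. The 2 bins that hold the Ihh-Epha4 border in one matrix or the other had 10 matches, 3 on the plus and 7 on the minus strand. The whole Ihh TAD held 4.70 matches per bin, against 2.25 over the autosomes, so these bins were near the local level. At least as many as the 4 matches of the WT border bin were found in 22.0% of autosomal bins. For the 6 of the border bin in the KO-labelled matrix the share was 8.99%. The 4 in the WT border bin are shown, each 5′ to 3′ on the strand of the match with 9 bases on either side and the matching 12 bases in capitals.
chr1:75563357-75563386, plus strand, intergenic: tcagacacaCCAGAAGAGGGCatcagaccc
chr1:75575243-75575272, plus strand, intergenic: acctgcatgCCAGAAGAGGGCgtcagatct
chr1:75581521-75581550, plus strand, intergenic: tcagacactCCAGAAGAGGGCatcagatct
chr1:75594396-75594425, minus strand, intergenic: aacactctgCCACTAGGGGGCagcatatcc
The 3 bins across the Epha4-Pax3 border held 3 matches. The WT border bin held 0 of them, and the 2 in the bin called in the KO-labelled matrix are shown in the same way.
chr1:77801913-77801942, minus strand, intergenic: ccacagcagCCAGAAGAGGGCattagatcc
chr1:77811822-77811851, plus strand, intergenic: cccaatggtCCACCAGCAGGCccagctctt
The Epha4 promoter bin held 0 matches, that of Wnt6 and Wnt10a 11, that of Ihh 2 and that of Pax3 1. At least 11 matches were found in 0.708% of autosomal bins. Intergenic here means outside annotated genes, and repeats were not looked up. A match describes letters only, and no binding was measured in these files.

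Contacts were then compared as observed over expected values, the corrected contact of a pair of bins divided by the mean of chromosome 1 at the same distance in the same matrix. The block between the desert and the Epha4 TAD was higher in the KO-labelled matrix. Between these stretches lay 5589 read pairs in WT and 6109 in the KO-labelled matrix, although the second matrix is the shallower one. The mean observed over expected value was 1.84 (95% interval 1.78 to 1.91) in WT and 3.0 (2.90 to 3.10) in the KO-labelled matrix, a log2 ratio of 0.70 (0.63 to 0.77). This was the widest difference of the 10 blocks within and between the 4 stretches, but with ratios of sums it was 0.59 and that of the Ihh TAD with the desert, -0.75, was wider. Among 2133 pairs of adjacent autosomal TADs, 5.11% had a log2 ratio as high. The pair already stood high in WT, where 98.9% of adjacent pairs had a value at or below it. In the KO-labelled matrix the share was 99.4%. In both matrices the value across this WT boundary exceeded those within the desert, 1.25 and 1.56, and within the Epha4 TAD, 1.12 and 1.00. Observed over expected contacts thus did not part the desert from the Epha4 TAD in WT or in the KO-labelled matrix.

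Contacts inside the desert were also higher over their expected value in the KO-labelled matrix, though not in number. They rested on 13459 read pairs in WT and 9189 in the KO-labelled matrix, and the observed over expected values were 1.25 (1.22 to 1.28) and 1.56 (1.52 to 1.61). The log2 ratio was 0.32 (0.27 to 0.38), and 7.04% of autosomal TADs had one as high.

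The Ihh TAD stood apart from the desert in WT, and its contacts with it were fewer in the KO-labelled matrix. They rested on 2400 read pairs in WT and 1018 in the KO-labelled matrix, with values of 0.460 (0.433 to 0.489) and 0.304 (0.280 to 0.333). The log2 ratio was -0.60 (-0.74 to -0.45), which 19.7% of adjacent autosomal pairs matched or went below. The WT value was as low in 2.63% of adjacent pairs, and that of the KO-labelled matrix in 5.95%, so among the autosomal pairs this one stood lower in WT.

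The Epha4 and Pax3 TADs were less separated in WT. Between them lay 2380 read pairs in WT and 1181 in the KO-labelled matrix, with values of 0.860 (0.817 to 0.908) and 0.587 (0.548 to 0.632). The WT value was as low in 49.1% of adjacent autosomal pairs, and that of the KO-labelled matrix in 32.2%. The log2 ratio was -0.55 (-0.67 to -0.43), with 21.9% of adjacent autosomal pairs as low, and with the domain limits of the KO-labelled matrix it was -0.0022.

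Over larger distances the values were smaller in number and their intervals wider. The Ihh and Epha4 TADs were joined by 771 and 606 read pairs at 0.886 (0.817 to 0.965) and 0.879 (0.800 to 0.970), and their log2 ratio of -0.01 had an interval from -0.19 to 0.16. The Ihh and Pax3 TADs were joined by 639 and 313 read pairs at 1.34 (1.22 to 1.47) in WT and 0.956 (0.840 to 1.10) in the KO-labelled matrix. The desert and the Pax3 TAD were joined by 1400 and 1022 read pairs at 1.43 and 1.38, with overlapping intervals.

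Within their own TADs the genes showed smaller differences than the adjacent pairs above, and autosomal TADs also differed less within than between, as given below. The Ihh TAD had a value of 1.05 in WT and 0.968 in the KO-labelled matrix, the Epha4 TAD 1.12 and 1.00, and the Pax3 TAD 1.19 and 1.43. The log2 ratios were -0.12 (-0.18 to -0.06), -0.17 (-0.25 to -0.08) and 0.26 (0.19 to 0.34). Of autosomal TADs, 24.9% and 19.3% had one as low as the first 2, and 11.7% had one as high as that of Pax3. The sign of the first 2 turned to 0.024 and 0.033 when sums were compared in place of the mean over bin pairs. Within the whole Epha4 domain between the 2 borders, desert included, the value was 1.52 (1.49 to 1.55) in WT and 2.16 (2.11 to 2.22) in the KO-labelled matrix.

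Past 1.5-fold, 1 of the 3 adjacent pairs was lower (Ihh with the desert) and 1 was higher (the desert with Epha4), while over all adjacent autosomal pairs 20.4% were lower and 8.11% higher. The pair of Ihh and the desert did not pass 1.5-fold from uncorrected read pairs, with a log2 ratio of -0.44, or with the expected value of all autosomes, with -0.56. None of the 4 stretches passed 1.5-fold within itself, as was so for nearly all autosomal TADs, of which 0.417% were lower and 0.463% higher. Neither of the 2 pairs that lie 2 apart passed 1.5-fold, where 30.5% of autosomal pairs were lower and 11% higher. The single pair that lies 3 apart, Ihh with Pax3, did not pass it either, where 29.2% were lower and 11.1% higher. It did so with domains divided at the 2 borders, at a log2 ratio of -0.59, and the Ihh with the Epha4 TAD did so with the domain limits of the KO-labelled matrix, at -0.61. Read against these shares, the counts alone do not set the stretch apart.

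**Figure D2:**
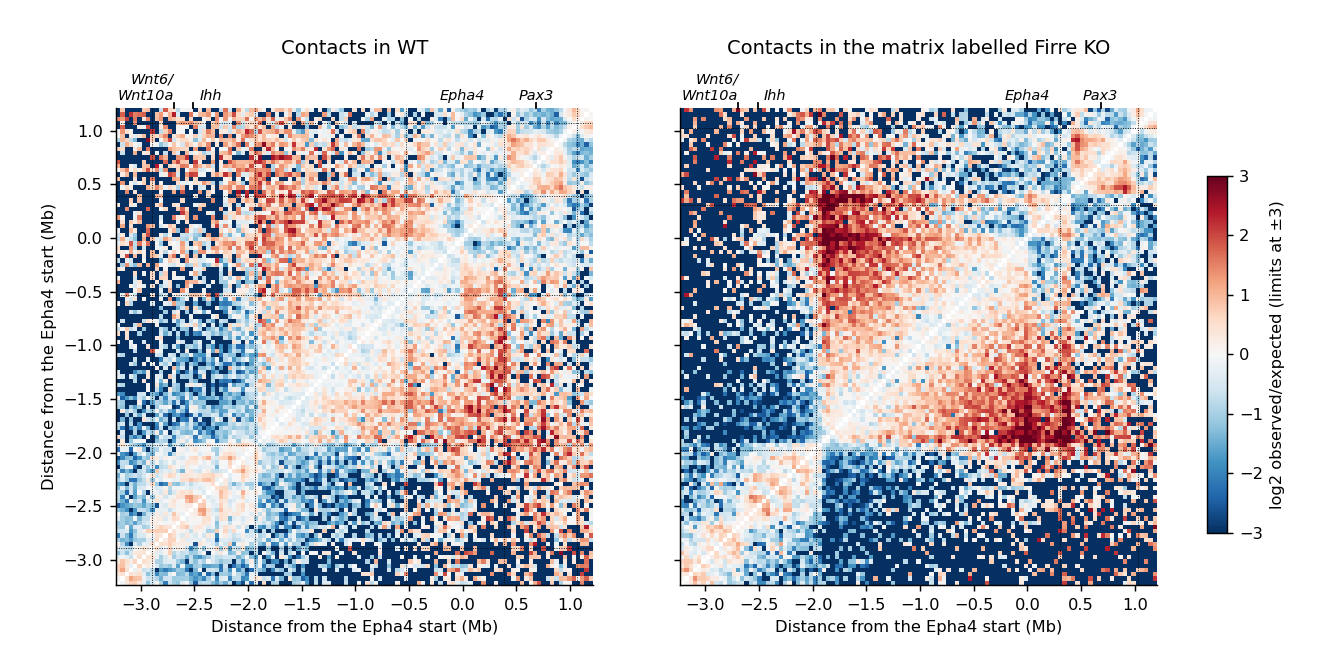
Observed over expected contacts of all bin pairs of the stretch on a log2 colour scale limited at ±3, both axes in Mb from the Epha4 start, WT on the left and the KO-labelled matrix on the right; dotted lines are the boundaries called in that matrix. The block between the desert (from about -1.9 Mb) and the Epha4 TAD is redder on the right, with a mean of 3.0 against 1.84, and the block between the Ihh TAD and the desert is bluer, with 0.304 against 0.460.

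**Figure D3:**
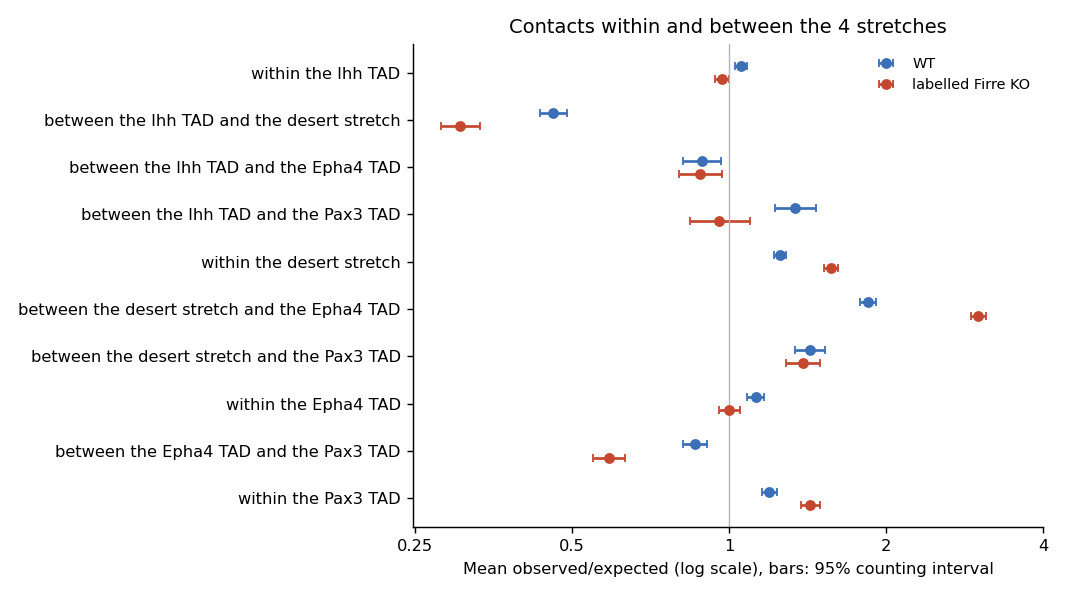
Mean observed over expected contacts (horizontal, log scale) within and between the 4 stretches, WT in blue and the KO-labelled matrix in red, with 95% counting intervals. The intervals lie apart most widely between the desert and the Epha4 TAD, and overlap between the Ihh and Epha4 TADs.

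The promoter bin of Epha4 carried the clearest difference of any of the 5 genes. It met the desert in 319 read pairs in WT and 679 in the KO-labelled matrix, and the observed over expected values were 1.54 (1.34 to 1.78) and 5.41 (4.95 to 5.91). The log2 ratio was 1.81 (1.58 to 2.04). Of the read pairs that this bin shared with the 4 stretches, 17.2% went to the desert in WT and 45.9% in the KO-labelled matrix.

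The same measure was taken for every autosomal promoter bin against the TADs on either side of its own, if these spanned at least 10 bins, which gave 26254 pairs. Their median log2 ratio was -0.29, 33.5% were lower past 1.5-fold and 9.51% were higher. Epha4 with the desert was matched or exceeded by 70 of them, itself included, 0.267%. Its value in the KO-labelled matrix was reached by 0.099% of the pairs, and its WT value by 4.73%. This comparison was chosen after the contact maps had been seen and is a description.

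The desert was divided into 4 near-equal parts, and the log2 ratio was higher in each part than in the one nearer to Epha4, though the intervals of neighbouring parts overlapped. In the part nearest Epha4, chr1:76640001-76960000, the promoter bin had 137 read pairs in WT and 154 in the KO-labelled matrix, at 1.27 and 2.32 times the expected value, a log2 ratio of 0.87 (0.52 to 1.22). In the next part it had 64 and 139 read pairs, at 1.21 and 3.53, a log2 ratio of 1.54 (1.10 to 1.99). In the one after that it had 61 and 185, at 1.41 and 5.23, a log2 ratio of 1.89 (1.44 to 2.34). In the part next to the border, chr1:75600001-75960000, 1560 to 1880 kb from the promoter bin, it had 57 and 201 read pairs. There the values were 2.21 (1.66 to 2.93) and 10.0 (8.61 to 11.6), a log2 ratio of 2.18 (1.74 to 2.62).

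By single bins, the observed over expected value was higher in the KO-labelled matrix in 34 of 34 desert bins, and the read pairs themselves were more numerous in 30 of 34. These bins make up the desert value of this promoter bin given above, so the counts restate it. The highest value of both matrices fell in chr1:75640001-75680000, 1.84 Mb from the promoter bin and in the second bin after the border, with 10 read pairs in WT at 4.30 (95% Poisson interval 4.80 to 18.4 read pairs) and 32 in the KO-labelled matrix at 18.6 (21.9 to 45.2 read pairs). Across the border, with the Ihh TAD, the Epha4 promoter bin had 74 and 57 read pairs at 1.28 (0.980 to 1.66) and 1.15 (0.853 to 1.56), so the intervals overlapped. This mean joined unlike bins. In the last bins of the Ihh TAD, at -1.96, -2 and -2.04 Mb from the promoter bin, there were 5, 6 and 5 read pairs in WT. The KO-labelled matrix had 11, 5 and 13 there, at 4.27, 1.59 and 4.16 against 1.58, 1.67 and 1.38 in WT. Further off the bins went both ways on few read pairs, with 4 and 7 at -2.16 Mb and 6 and 0 at -2.2 Mb. The values therefore do not place the end of the rise at the border.

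Within the Epha4 TAD the promoter bin had the highest contact with the desert in the KO-labelled matrix, but not in WT. It ranked 1 of 22 bins in the KO-labelled matrix and 14 of 22 in WT. The other 21 bins ranged from 1.38 to 2.92 in WT, with a median of 1.76, and from 2.20 to 4.63 in the KO-labelled matrix, with a median of 2.77. Their log2 ratios ran from -0.27 to 1.35, and 12 of the 21 were higher past 1.5-fold. These bins belong to the block with a log2 ratio of 0.70, so the count is no separate result. No share over other TADs was taken. The bins on either side of the promoter bin had values of 3.54 and 4.11 in the KO-labelled matrix and 1.48 and 2.09 in WT. The last bin before the Pax3 border, chr1:77840001-77880000, had the highest value in WT, 2.92, and the second highest in the KO-labelled matrix, 4.63.

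**Figure D4:**
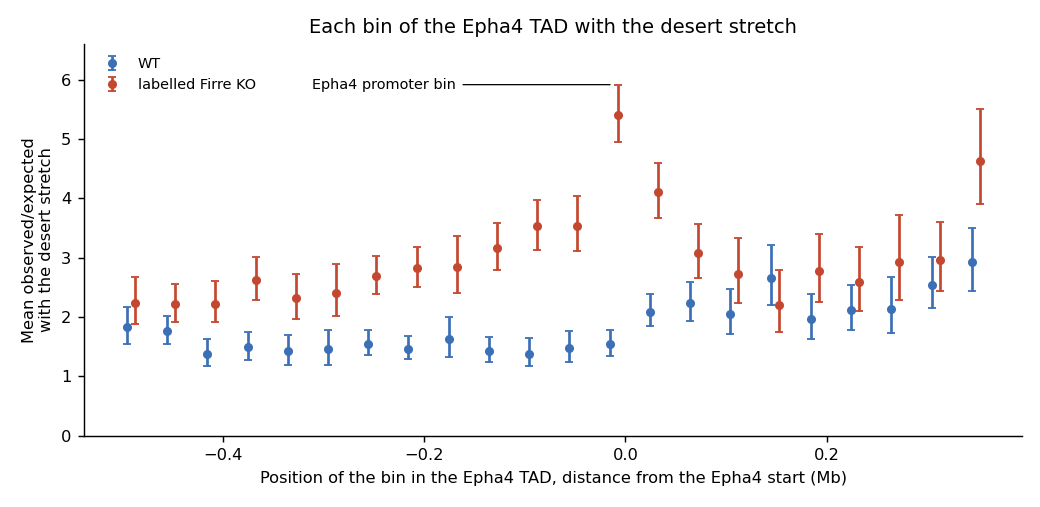
Mean observed over expected contact of each of the 22 bins of the Epha4 TAD with the desert stretch (vertical axis) against distance of the bin from the Epha4 start (Mb), WT in blue and the KO-labelled matrix in red, with 95% counting intervals. The red values peak at the promoter bin at 5.41, where the blue value of 1.54 lies among its neighbours.

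The mean of the contacts of the Epha4 promoter bin inside its own TAD was close to the expected value, though single bins were not. In the last bin before the Pax3 border, at 0.36 Mb, there were 12 and 24 read pairs at 0.590 and 1.93. On the desert side, at -0.12 Mb, there were 158 and 64 at 1.62 and 1.22. The means rested on 1297 read pairs in WT and 667 in the KO-labelled matrix, at 1.06 (0.984 to 1.14) and 1.09 (0.981 to 1.21). With the Pax3 TAD it had 169 and 75 read pairs at 0.822 (0.694 to 0.975) and 0.522 (0.405 to 0.672), a log2 ratio of -0.65 (-1.07 to -0.24) that 30.2% of the 26254 promoter and neighbour pairs matched or went below.

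The promoter bin of Pax3 met the Epha4 TAD in 143 read pairs in WT and 64 in the KO-labelled matrix. The values were 0.833 (0.673 to 1.04), an interval that held 1, and 0.467 (0.352 to 0.633). The log2 ratio was -0.83 (-1.31 to -0.35), which 22.9% of pairs matched or went below. These contacts are part of the block between the Epha4 and Pax3 TADs given above, so they are no separate result. In its own TAD it had 902 and 564 read pairs at 1.09 (1.01 to 1.18) and 1.27 (1.15 to 1.40). With the TAD after its own, chr1:78600001-79760000, it had 96 and 75 at 0.557 (0.429 to 0.722) and 0.712 (0.544 to 0.928). That log2 ratio was 0.35 (-0.15 to 0.86), which 16.5% of the promoter and neighbour pairs reached. With the desert it had 80 and 75 read pairs at 1.22 (0.944 to 1.59) and 1.60 (1.22 to 2.09), and with the distant Ihh TAD 58 and 23 at 1.97 (1.47 to 2.64) and 1.07 (0.648 to 1.76). The log2 ratio was 0.38 (-0.12 to 0.89) with the desert and -0.88 (-1.63 to -0.14) with the Ihh TAD. In the part of the desert next to the Ihh-Epha4 border Pax3 had 17 and 26 read pairs at 1.47 (0.842 to 2.47) and 2.95 (1.88 to 4.52), a log2 ratio of 1.00 (0.09 to 1.92). In the other parts its log2 ratios were 0.17, -0.43 and 0.15, and their intervals all held 0.

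**Figure D5:**
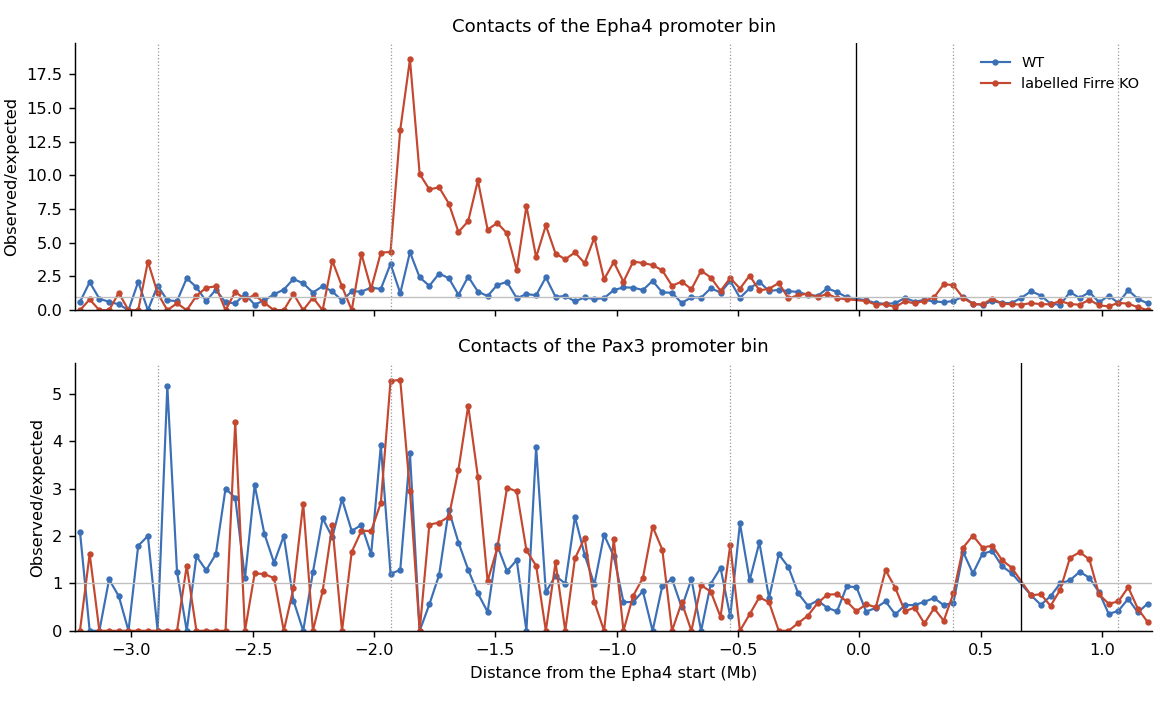
Observed over expected contact of the promoter bins of Epha4 (upper panel) and Pax3 (lower panel) with every other bin of the stretch, against distance from the Epha4 start (Mb), WT in blue and the KO-labelled matrix in red; solid vertical lines mark the promoter bins and dotted lines the WT boundaries. In the upper panel the red values climb to 18.6 just inside the Ihh-Epha4 border, where the blue values stay at 4.30 or below, and the distant points of the lower panel rest on few read pairs.

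The ligand genes on the other side of the border had most of their contacts inside the Ihh TAD in both matrices. The shared promoter bin of Wnt6 and Wnt10a had 92.7% of its read pairs with the 4 stretches inside the Ihh TAD in WT and 93.7% in the KO-labelled matrix, and that of Ihh 92.7% and 93.0%. With the TAD before Wnt6, chr1:72320001-74600000, counted too, the shares were 79.3% and 73.6% for Wnt6 and Wnt10a and 84.2% and 85.7% for Ihh. Ihh met that TAD in 118 read pairs in WT and 61 in the KO-labelled matrix, at 0.693 (0.525 to 0.923) and 0.318 (0.202 to 0.530), a log2 ratio of -1.12 (-1.82 to -0.43) that 14.6% of the promoter and neighbour pairs matched or went below. Wnt6 and Wnt10a met it in 165 and 134, with a log2 ratio of -0.47 (-0.995 to 0.057). For Ihh the values inside the TAD were 1.18 (1.09 to 1.27) and 1.19 (1.08 to 1.31). For Wnt6 and Wnt10a they were 1.08 (0.989 to 1.19) and 0.860 (0.757 to 0.984), a log2 ratio of -0.33 (-0.56 to -0.11).

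Their contacts with the desert were sparse. Wnt6 and Wnt10a met it in 39 read pairs in WT and 16 in the KO-labelled matrix, at 0.544 (0.365 to 0.805) and 0.289 (0.156 to 0.517), and Ihh in 58 and 25, at 0.465 (0.333 to 0.659) and 0.354 (0.213 to 0.574). The intervals overlapped for both, and the log2 ratios were -0.91 (-1.84 to 0.02) and -0.39 (-1.18 to 0.40). In the part of the desert next to the border, Ihh had 34 and 8 read pairs, at 0.727 (0.497 to 1.04) and 0.222 (0.0925 to 0.468), and here the intervals did not overlap. Wnt6 and Wnt10a had 11 and 1 there, at 0.328 (0.161 to 0.615) and 0.0278 (0.0007 to 0.237). In that same part the observed over expected value of Epha4 was the highest of the 4 promoter bins in both matrices, with an interval that overlapped that of Pax3 in WT. In the parts further from the border the log2 ratios of Ihh were 0.30, -0.49 and 0.12. Those of Wnt6 and Wnt10a were -1.89, 0.999 and -0.996, and all these intervals held 0.

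Direct contacts between the promoters were few. Wnt6 and Wnt10a with Ihh, 160 kb apart, had 24 read pairs in WT and 13 in the KO-labelled matrix, against 27.8 and 17.0 expected at that distance. Epha4 with Pax3, 680 kb apart, had 14 and 4, against 15.2 and 9.70 expected. The 4 pairs that lie 2520 to 3360 kb apart had 0 to 2 read pairs each, so no difference was detectable at this depth. With the bins on either side included, the 9 bin pairs around Epha4 and Pax3 had 82 and 35 read pairs and a log2 ratio of -0.64 (-1.25 to -0.04), and those around Wnt6, Wnt10a and Ihh 498 and 230 and a log2 ratio of -0.37 (-0.64 to -0.11).

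Local contacts, from 80 kb to 1 Mb on both sides of the promoter bin, allowed a comparison with every gene. The value for Epha4 was 1.08 (1.01 to 1.17) in WT and 1.35 (1.24 to 1.48) in the KO-labelled matrix, a log2 ratio of 0.32 (0.16 to 0.48), which 7.84% of 14674 autosomal promoter bins reached. Its increase lay on the desert side, at 1.42 and 2.05, whereas the Pax3 side had 0.743 and 0.656. The log2 ratios of Wnt6 and Wnt10a, of Ihh and of Pax3 were -0.13, -0.13 and -0.02, and all 3 intervals held 0. For Wnt6 and Wnt10a the 2 sides differed in direction, with a log2 ratio of 0.32 (0.04 to 0.61) toward the boundary before Wnt6 and -0.65 (-0.97 to -0.33) toward Ihh. None of the 4 promoter bins passed 1.5-fold, where 6.7% of all promoter bins were lower and 1.3% higher. The values of Epha4 and Ihh depended on the distances taken in. The log2 ratio of Epha4 was 1.16, past 1.5-fold, from 80 kb to 2 Mb and 0.092 from 40 kb to 480 kb, and it was 0.12 with ratios of sums. That of Ihh was -0.35 and 0.12 over the same distances.

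Of the 58 genes that start in the stretch, 2 were higher past 1.5-fold and 0 lower, where 1.09% of all 20727 autosomal genes measured were higher and 7.58% lower. Both, Acsl3, a long-chain acyl-CoA synthetase, and Utp14b, start in the same bin beyond Pax3, with local values of 0.611 in WT and 1.06 in the KO-labelled matrix; they are named because their count is small, after their values were seen.

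The gene families of the 5 genes, themselves included, are set beside the same shares of 7.58% lower and 1.09% higher. Of 19 Wnt ligand genes, 2 were lower past 1.5-fold, Wnt1 and Wnt10b, which share a promoter bin with a log2 ratio of -0.62, and 0 were higher, with Wnt5a highest at 0.52. Of 11 hedgehog pathway genes, 1 was lower, the transcription factor Gli1 at -0.80, and 0 were higher. Of 14 Eph receptor genes 0 passed in either direction, from Epha2 at -0.41 to Epha3 at 0.57, with Ephb6 and Epha5 also above Epha4, at 0.45 and 0.48. Of 9 Pax genes 0 passed, from Pax8 at -0.47 to Pax1 at 0.17. The median log2 ratios were -0.18, -0.05, 0.08 and -0.20, beside -0.13 over all autosomal genes.

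The share of read pairs that joined other chromosomes differed between the promoter bins and moved with the matrix. It was 13.4% in WT and 24.7% in the KO-labelled matrix for Epha4, 13.0% and 31.5% for Pax3, 13.6% and 35.9% for Ihh, and 15.3% and 40.4% for Wnt6 and Wnt10a. The medians over chromosome 1 were 14.0% and 34.5%, so Epha4 lay below the median by the widest margin of the 4 in the KO-labelled matrix. The part of this difference in the contact values was not tested.

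The leading component of the contact pattern in 200 kb steps was oriented toward gene starts. Its correlation with them was 0.557 in WT and 0.435 in the KO-labelled matrix, so it followed the split into gene-rich and gene-poor chromatin only in part. It put Wnt6, Wnt10a and Ihh at 1.93 in WT and 2.02 in the KO-labelled matrix. Epha4 stood at 0.95 and 0.49, and Pax3 at 1.02 and -0.06. The 6 steps from chr1:76000001 to chr1:77200000, which end before Epha4, were negative in WT, from -0.64 to -0.10, and positive in the KO-labelled matrix, from 0.17 to 0.54. The share of all steps that changed sign was not taken, so the change of sign alone does not set these steps apart. Whether it takes part in the contacts of Epha4 with the desert was not tested.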

How the data were processed

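Hi-C libraries of male mouse embryonic stem cells labelled WT and Firre KO were analysed, 2 libraries per group in 1 matrix. The authors cut chromatin with HindIII and mapped, filtered, merged and binned the reads at 40 kb with HiC-Pro, in version 2.7.8 and build mm9 by the submitters' processing notes. The deposited values are an iteratively corrected contact signal for bin pairs, scaled so that every kept bin has the same total. Read pairs were recovered from them by fitting a weight per bin, and 100% came out within 0.05 of a whole number. Lengths of 22 chromosomes equalled those of the mm9 reference, and genes came from GENCODE M1.

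Insulation followed the study's settings in an own implementation, with a square of 480 kb and its interquartile mean. Smoothing took the mean of each bin and the 160 kb around it. The delta span was 320 kb, and boundaries were kept at a strength above 0. TADs of 3 bins to 3 Mb and pairs with at least 20 bin pairs formed the background, with calls at 1.5-fold. Intervals are 95% gamma, delta-method or exact Poisson intervals. They cover counting error alone: PCR copies cannot be told from separate molecules here, and bins are not replicates. No test was run.

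Code was tested on simulated matrices with Python 3.11.15, numpy 2.4.6 and scipy 1.17.1. Named genes are the 5 members, genes that start at a border bin or beside it, and up to 2 highest and 2 lowest of each gene list. Ephb6 was added for comparison with Epha4. Members, gene lists and measures were chosen with earlier results of these data known. Alternatives changed the square, its summary, the correction, the expected value, the distances, the TAD limits and the rules for boundaries, and those for the desert stretch and the scale of the score were added after seeing the data.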

Additional observations from a re-analysis of the deposited data

How the results depend on the processing

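Over 18 results and 93 alternatives, 59 values stayed within the half-width of a counting interval of the value given above, 29 moved further or, for the count of shared boundaries, by over 1.5 times, and 5 reversed the sign of a value larger than that half-width. For the insulation differences at the borders the half-width is that of the plain-mean score. The sign also turned in 9 alternatives of values whose interval held 0: the Ihh with the Epha4 TAD (0.011 to 0.16), the desert with the Pax3 TAD (0.21 from uncorrected read pairs), and the local contacts of Wnt6 and Wnt10a, Ihh and Pax3. The cause of the moves was not tested. With a square of 960 kb the insulation difference was -1.60 at the Ihh-Epha4 border and -0.41 at the Epha4-Pax3 border, and with the plain mean it was -0.77 at the first. In SDs of each matrix, a scale added after seeing the data, it was -0.25 and 0.081 (reversed). The values in SDs are counted above as moved and reversed, but their units are unlike those of the log2 value and its half-width. The size of a move to the SD scale therefore has no meaning. With ratios of sums, the log2 ratio within the Ihh TAD reversed to 0.024, that within the Epha4 TAD reversed to 0.033, and that within the Pax3 TAD was 0.16. From uncorrected read pairs it was 0.34 within the Pax3 TAD and -0.40 between the Epha4 and Pax3 TADs. With the domain limits of the matrix labelled Firre KO, where the Epha4 TAD takes in the desert, the log2 ratios were -0.059 within Ihh, -0.61 between Ihh and Epha4, 0.54 within Epha4 (reversed) and -0.0022 between Epha4 and Pax3. With domains divided at the 2 borders they were -0.032, -0.36, 0.51 (reversed) and -0.18, and -0.59 between Ihh and Pax3. The count of shared boundaries was 0 of 3 with a square of 960 kb (24.6% over the autosomes), 1 of 5 from uncorrected read pairs (43.3%), 0 of 5 in the same bin (17.9%) and 4 of 6 with a delta span of 160 kb (46.3%). From uncorrected read pairs and with sums, the log2 ratio was 0.94 and 0.59 between the desert and Epha4, 0.43 and 0.19 within the desert, and -0.44 and -0.75 between Ihh and the desert. The log2 ratio of the Epha4 promoter bin with the desert was 1.94 from uncorrected read pairs, 1.85 with the expected value of all autosomes and 1.59 with sums, alternatives chosen after seeing the data. No paired analysis was possible because each group has 1 pooled matrix. Counts of 0 to 2 read pairs limit the distant promoter pairs.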
